A study of Mus musculus with 11 samples.

Results

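Keratins 7, 8, 18 and 19, which mark luminal cells of the mammary gland, and keratins 5, 14, 15 and 17, which mark its basal cells, were followed together with keratin 80 in mouse mammary carcinoma lines that keep or lose HER2. The 9 genes were taken from the count table by their symbols, out of 53 keratin genes and 21846 genes in all. RNA was sequenced in 11 libraries, and all lines came from carcinomas of female FVBhuHER2 mice, which carry human HER2 as a transgene. MamBo89HER2stable was derived from tumor A, MamBo43HER2labile from tumor B, and MamBo38HER2loss from a tumor that MamBo43HER2labile cells formed after injection. Trastuzumab, an antibody against human HER2, was used at 30 µg/ml, either for 60 days (the 60-day libraries) or for 30 days followed by 30 days without it (the withdrawal libraries). The HER2-positive class of the study's methods holds 5 libraries: untreated MamBo43 (n = 1), untreated MamBo89 (n = 2, one with NT and one with AG3 in its name), and MamBo89 under each schedule. The HER2-negative class holds 6: untreated MamBo38 (n = 2), MamBo38 under each schedule, and MamBo43 under each schedule (MamBo43 TRT). The paper classes MamBo43 TRT as having lost HER2. It also reports that a small share of HER2-positive cells stayed detectable under trastuzumab and that islets of polygonal cells remained. The methods list a HER2-positive clone of MamBo89 among the samples, and the labels do not say which library it is. They do not call the libraries separate cultures of one condition either, so that p-values measure only the spread between these libraries. For untreated MamBo43 the methods state more replicates than the 1 library held here.

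Keratins build the intermediate filaments of epithelial cells. A filament needs a type I and a type II keratin in pairs, and cells of simple epithelia, such as the luminal cells that line mammary ducts, pair Krt18 (type I) with Krt8 (type II), while basal cells pair Krt14 with Krt5. Plakins and desmosomes anchor the filaments at cell junctions, and mesenchymal cells build their intermediate filaments from vimentin instead.

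The luminal members were Krt8, the type II keratin of simple epithelia (ENSMUSG00000049382, chr15:101996698-102004482, minus strand, GRCm38), Krt18, its type I partner (ENSMUSG00000023043, chr15:102028180-102032027, plus strand), Krt7, a further type II keratin of ductal epithelia (ENSMUSG00000023039, chr15:101411043-101430313, plus strand), and Krt19, a type I keratin of luminal cells (ENSMUSG00000020911, chr11:100140810-100148665, minus strand). The basal members were Krt5 (ENSMUSG00000061527, chr15:101707070-101712898), Krt14 (ENSMUSG00000045545, chr11:100203162-100207548), Krt15, a type I keratin known from basal cells of stratified epithelia (ENSMUSG00000054146, chr11:100131758-100135928), and Krt17, known from basal and injured epithelia (ENSMUSG00000035557, chr11:100256217-100261029), all on the minus strand. Krt80, a type II keratin (ENSMUSG00000037185, chr15:101347444-101370162, minus strand), is counted to neither set. Type II members all lie on chromosome 15, type I members on chromosome 11, and Krt18 lies among the type II genes beside Krt8. Of the 75-base windows in the transcripts of Krt8, 23.5% also occur in its pseudogene Krt8-ps or in Gm36026, a gene on the opposite strand, so that part of its reads could be counted elsewhere. The shares were 7.77% for Krt5 (among others with Krt6a and Krt6b), 5.71% for Krt14 (with Krt16), 1.94% for Krt80 and 0.0563% for Krt7 (both with genes on the opposite strand, which the library kit does not tell apart), and no window of Krt15, Krt17, Krt18 or Krt19 was shared.

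RefSeq's table of promoters for GRCm38.p6, each reaching from 250 bases before to 50 after a gene's start, held 5 of the 9 members. The windows of Krt7, Krt8 and Krt18 are shown because these 3 genes were at a few counts in MamBo38 and were abundant in the other libraries. Capitals mark matches on either strand to the GC box of Sp1, GGGCGG. They also mark the AP-2 motif GCCNNNGGC. The third motif in capitals is the TATA box, spelled TATAAA. The AP-1 motif TGANTCA was searched as well.
Krt7, chr15:101412153-101412452, plus strand: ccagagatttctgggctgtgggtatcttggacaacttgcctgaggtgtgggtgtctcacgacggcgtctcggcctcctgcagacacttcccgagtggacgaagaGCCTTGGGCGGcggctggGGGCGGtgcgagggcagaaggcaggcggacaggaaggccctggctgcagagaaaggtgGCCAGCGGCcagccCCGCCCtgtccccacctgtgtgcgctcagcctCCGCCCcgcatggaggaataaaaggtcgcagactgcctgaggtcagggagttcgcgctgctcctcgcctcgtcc
Krt8, chr15:102004293-102004592, minus strand: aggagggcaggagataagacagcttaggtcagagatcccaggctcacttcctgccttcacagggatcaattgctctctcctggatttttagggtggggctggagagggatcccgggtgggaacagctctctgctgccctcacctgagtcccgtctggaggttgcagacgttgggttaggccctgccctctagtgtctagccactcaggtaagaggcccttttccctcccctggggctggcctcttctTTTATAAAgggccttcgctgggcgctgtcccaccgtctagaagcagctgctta
Krt18, chr15:102027966-102028265, plus strand: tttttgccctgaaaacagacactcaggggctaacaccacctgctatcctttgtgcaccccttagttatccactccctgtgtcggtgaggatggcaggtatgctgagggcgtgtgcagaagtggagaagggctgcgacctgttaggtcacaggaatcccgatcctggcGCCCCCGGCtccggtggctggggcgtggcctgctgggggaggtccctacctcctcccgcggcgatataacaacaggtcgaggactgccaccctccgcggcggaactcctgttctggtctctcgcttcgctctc
The Krt7 window held 4 GC boxes and 2 AP-2 matches, of which 1 GC box and 1 AP-2 match overlap. The Krt8 window held a pair of overlapping TATA matches, 1 on each strand, and the Krt18 window 1 AP-2 match. Among 32851 promoters of the same length, 35.7% held the GC box, 16.6% the AP-2 motif, 13.6% the TATA box and 7.81% the AP-1 motif, which none of the 5 members' windows held. No motif occurred in all 3 windows.

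Total counts were between 17040454 and 27127662 per library, with a median of 20592201. Levels are given in CPM, the counts divided by the library size after its scaling by edgeR's TMM method, and levels of different genes are compared only per kb of the principal transcript. In 1 library, 3 counts, taken as the detection floor, correspond to 0.112 to 0.179 CPM, and since the reads carry no molecular identifiers, this floor and all intervals cover counting error only. The epithelial genes Epcam, Cdh1, Cldn3, Cldn4, Cldn7 and Esrp1 summed to between 2065 and 2363 CPM in the HER2-positive libraries, to 810 and 208 CPM in MamBo43 TRT and to between 1.16 and 1.69 CPM in MamBo38. In leukocyte, endothelial and adipocyte lists, Ptprc, Cdh5, Plin1 and Adipoq never passed 3 counts and Adgre1 and Cd3e were at 0 throughout. The endothelial list summed to at most 0.837 CPM and the adipocyte list to at most 2.67 CPM, but Cd68 reached 49.9 CPM in MamBo38, and the part of such cells in the keratin values was not tested. Among the MamBo89 libraries, that named AG3 stood apart (Krt17 at 12.4 CPM against 0.507 to 1.11 CPM in the other 3). Among the MamBo38 libraries, the untreated one that shares its name code with MamBo43 and MamBo89 (untreated library 2) had 1.28 CPM of Krt80, against 4.31 to 6.02 CPM in the 3 with the other code. Fewer cells with a keratin and less keratin RNA per cell cannot be told apart in such bulk samples.

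**Figure D1:**
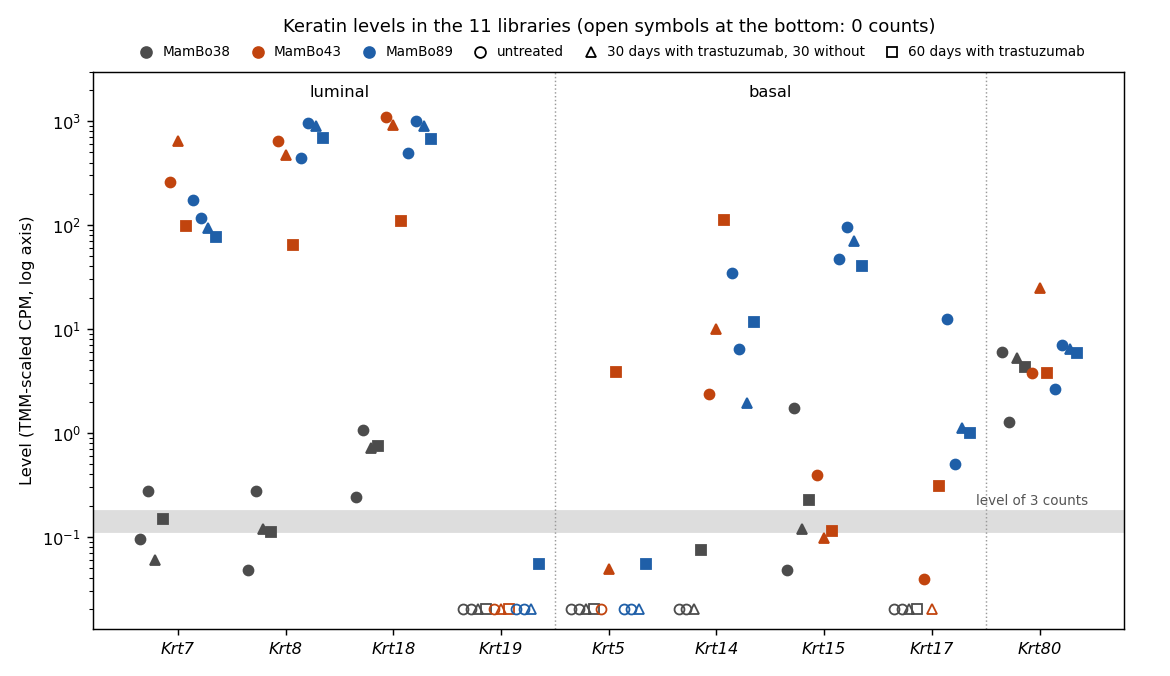
Level of each keratin (TMM-scaled CPM, logarithmic axis) in each of the 11 libraries, with color for the line and symbol for the treatment. Open symbols at the bottom stand for 0 counts, and the grey band marks the level of 3 counts per library. The 4 MamBo38 libraries lie at or under 1.06 CPM for all luminal keratins, and Krt15 is above 40 CPM in MamBo89 only.

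Krt8, Krt18 and Krt7 were abundant in every MamBo43 and MamBo89 library and nearly absent in MamBo38. Krt8 had 0.0482, 0.279, 0.119 and 0.112 CPM in MamBo38 (untreated library 1, untreated library 2, withdrawal and 60 days, in this order here and below), which are 1, 5, 2 and 3 counts. In MamBo89, Krt8 had 438 CPM in the AG3 library, 955 CPM in the NT library, 895 CPM after withdrawal and 695 CPM after 60 days. Untreated MamBo43 had 643 CPM of Krt8, within the range of MamBo89. In MamBo43 TRT, Krt8 was at 470 CPM in the withdrawal library and at 64.2 CPM in the 60-day library, so that even the lower of both was far above any MamBo38 library.

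Krt18, with which Krt8 forms filaments, was likewise nearly absent in MamBo38 only. It had 0.241, 1.06, 0.715 and 0.750 CPM in MamBo38, and 495, 994, 906 and 670 CPM in the MamBo89 libraries named AG3 and NT, after withdrawal and after 60 days. In MamBo43, Krt18 was at 1087 CPM untreated, 914 CPM after withdrawal and 109 CPM after 60 days. Per kb, Krt18 was 1.31 to 1.54 times as high as Krt8 in MamBo89 and 2.31, 2.65 and 2.32 times as high in MamBo43 untreated, after withdrawal and after 60 days. The ratio thus varied little within MamBo89 and within MamBo43 (MamBo38 had too few counts for it), although in the 60-day library of MamBo43 Krt8 was at 0.0999 and Krt18 at 0.101 of the untreated level.

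Krt7 was highest in another library than Krt8 (MamBo89 NT) and Krt18 (untreated MamBo43). It had 0.0963, 0.279, 0.0596 and 0.150 CPM in MamBo38, 2, 5, 1 and 4 counts, and 173, 117, 92.7 and 76.1 CPM in MamBo89. In MamBo43, Krt7 had 261 CPM untreated, 643 CPM after withdrawal and 97.6 CPM after 60 days, and the withdrawal library was the highest of all 11. Relative to Krt8 per kb, Krt7 was at 0.194 in untreated MamBo43, 0.654 after withdrawal and 0.727 after 60 days, whereas it was between 0.0496 and 0.189 in MamBo89. The principal Krt7 transcript is long, at 4094 bases, and its value per kb is low accordingly.

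Krt19, a keratin that luminal cells usually express, was at 0 counts in 10 libraries and at 1 count in the 60-day library of MamBo89, which is 0.0551 CPM. Its level was therefore below the floor everywhere, and no line was distinguished by it.

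Among the basal members, Krt14 was found in MamBo43 and MamBo89. It had 0 counts in 3 MamBo38 libraries and 2 counts, or 0.0750 CPM, in the 60-day one. In MamBo43, Krt14 had 2.39 CPM untreated, 9.91 CPM after withdrawal and 111 CPM after 60 days, the highest level of the 11 libraries. MamBo89 had 34.4 CPM in the AG3 library, 6.45 CPM in the NT library, 1.92 CPM after withdrawal and 11.7 CPM after 60 days, a spread that holds the MamBo43 values except that of the 60-day library.

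Krt5, the type II partner of Krt14, was nearly limited to 1 library. The 60-day library of MamBo43 had 100 counts, 3.82 CPM, the withdrawal library of MamBo43 and the 60-day library of MamBo89 had 1 count each, and the other 8 libraries had 0. Per kb, Krt14 was at 65.4 and Krt5 at 1.74 in the 60-day library of MamBo43. In MamBo89 the AG3 library held 710 counts of Krt14 and 0 of Krt5.

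Krt15 marked MamBo89. It had 46.7, 96.3, 69.9 and 40.0 CPM there (AG3, NT, withdrawal and 60 days), but 0.392 CPM in untreated MamBo43 and 0.0981 and 0.115 CPM in MamBo43 TRT. In MamBo38, Krt15 had 0.0482, 1.73, 0.119 and 0.225 CPM, the second of these, with 31 counts, in untreated library 2. Per kb, Krt15 reached 37.2 on average in MamBo89, where Krt7 averaged 28.0 and Krt14 averaged 8.03.

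Krt17 was low in all but 1 library. The AG3 library of MamBo89 had 12.4 CPM, and the other MamBo89 libraries had 0.507 (NT), 1.11 (withdrawal) and 0.991 CPM (60 days). MamBo43 had 1 count untreated, 0 after withdrawal and 8 after 60 days, or 0.306 CPM, and the 4 MamBo38 libraries had 0. The AG3 library also had 5.34 times as much Krt14 as the NT library, but Krt8, Krt18 and Krt15 at 0.459, 0.499 and 0.485 times the NT level.

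Krt80 did not separate the lines. It had 6.02, 1.28, 5.30 and 4.31 CPM in MamBo38, 2.67, 6.95, 6.47 and 5.89 CPM in MamBo89, and 3.80, 24.8 and 3.74 CPM in MamBo43 untreated, after withdrawal and after 60 days. The highest of the 11 was the withdrawal library of MamBo43, as for Krt7.

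**Figure D2:**
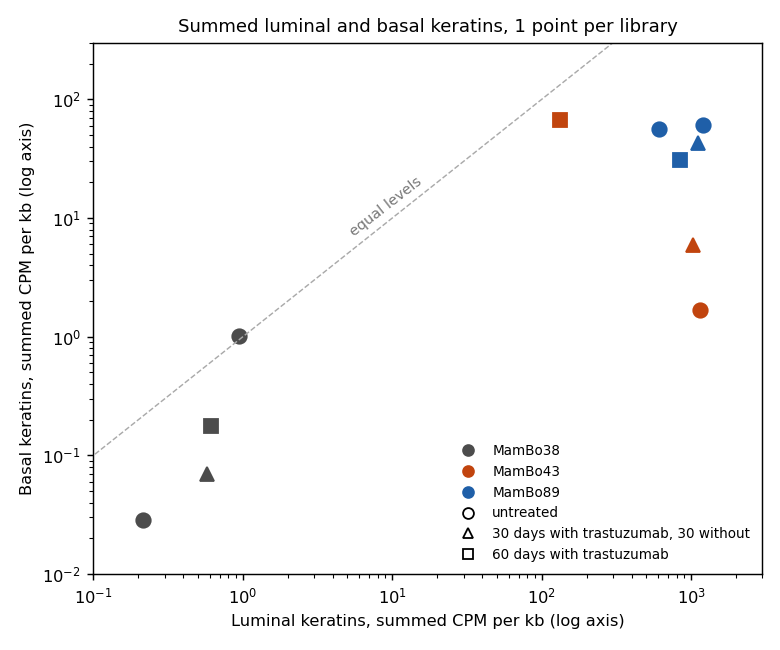
Summed luminal (horizontal) against summed basal keratins (vertical), both in CPM per kb on logarithmic axes, with 1 point per library, color for the line and symbol for the treatment. On the dashed line both sums are equal. MamBo38 libraries lie at or under 1.02 on both axes, and in MamBo43 the 60-day library lies lower to the left and higher than the untreated one.

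Summed over the 4 luminal members, levels per kb were between 0.216 and 0.948 in MamBo38, between 611 and 1208 in MamBo89, and 1149, 1034 and 133 in MamBo43 untreated, after withdrawal and after 60 days. The 4 basal members summed to between 0.0283 and 1.02 in MamBo38, to between 31.1 and 60.8 in MamBo89, and to 1.67, 5.91 and 67.4 in the same MamBo43 libraries. The basal share of the counts of all 8 genes was 0.142% in untreated MamBo43 (95% Wilson interval 0.112 to 0.178%), 0.493% after withdrawal (0.430 to 0.565%) and 29.8% after 60 days (28.9 to 30.7%). In MamBo89 it was 7.79% in the AG3 library and 3.53 to 4.76% in the others. In MamBo38, 9 to 60 counts in all were left for the 8 genes, and the share had intervals as wide as 1.99 to 43.5% (untreated library 1), so that no balance could be read in this line. The sum of type I over that of type II members, per kb, was between 1.33 and 1.51 in MamBo89 and was 1.94, 1.62 and 2.43 in MamBo43 untreated, after withdrawal and after 60 days.

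HER2-negative were then compared with HER2-positive libraries, the main comparison of the study. Of the 9 members, 6 had enough counts for the test, while Krt5, Krt17 and Krt19 did not. Krt15 was called lower in HER2-negative libraries, at an adjusted p under 0.1 and a change of at least 1 on the log2 scale, and the other 5 were not called. Among all 12364 genes tested, 32.8% were called, 15.8% higher and 17% lower. The members had a median log2 fold change of -1.25, against -0.04 over all genes tested. Krt15 passed the filter on low counts through the 4 MamBo89 libraries and MamBo38 untreated library 2. The mean was 0.389 ± 0.659 CPM over the 6 HER2-negative and 50.7 ± 35.7 CPM over the 5 HER2-positive libraries (± SD, log2 fold change -7.06, SE 1.26, edgeR with Benjamini-Hochberg adjusted p = 0.000776). Untreated MamBo43, the HER2-positive library of tumor B, was at 0.392 CPM, within the HER2-negative range. With tumor B libraries only, the log2 fold change of Krt15 was -0.08 (edgeR adjusted p = 0.98), and with tumor of origin as a covariate it was -0.08 too (edgeR adjusted p = 0.976). Over all 18 alternatives that gave a value, the adjusted p of Krt15 was between 1.48e-11 and 0.98. Without MamBo38 untreated library 2, Krt15 did not pass the filter and 0 members were called.

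Krt8 (log2 fold change -3.02, SE 1.83, edgeR adjusted p = 0.185) and Krt18 (-2.28, SE 1.71, edgeR adjusted p = 0.284) were not called between the HER2 classes. The HER2-negative class held the 4 MamBo38 libraries at 0.0482 to 0.279 CPM of Krt8 and the MamBo43 TRT libraries at 64.2 and 470 CPM, and the withdrawal library lay within the range of the HER2-positive class, 438 to 955 CPM. Without that withdrawal library, 3 members were called, Krt8 at -5.78 (edgeR adjusted p = 0.0233), Krt18 at -5.19 (edgeR adjusted p = 0.0235) and Krt15. Over 19 alternatives the adjusted p was between 0.00215 and 0.531 for Krt8 and between 0.00314 and 0.55 for Krt18. Krt7 (-0.22, SE 1.77, edgeR adjusted p = 0.926), Krt14 (0.83, SE 1.82, edgeR adjusted p = 0.727) and Krt80 (0.55, SE 0.63, edgeR adjusted p = 0.483) were not called, and the sign of each turned when single libraries were left out. In untreated libraries only, the estimates were -9.92 for Krt7, -12.01 for Krt8, -10.37 for Krt18 and -11.24 for Krt14, and all 4 were called. Krt14 was at 0 counts in untreated MamBo38, so that its estimate depends on edgeR's prior count. All 4 genes passed the filter on low counts only through the HER2-positive libraries, so these calls are no support. In 0 of the 6 members tested did the classes not overlap, against 34.9% of all genes tested.

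**Figure D3:**
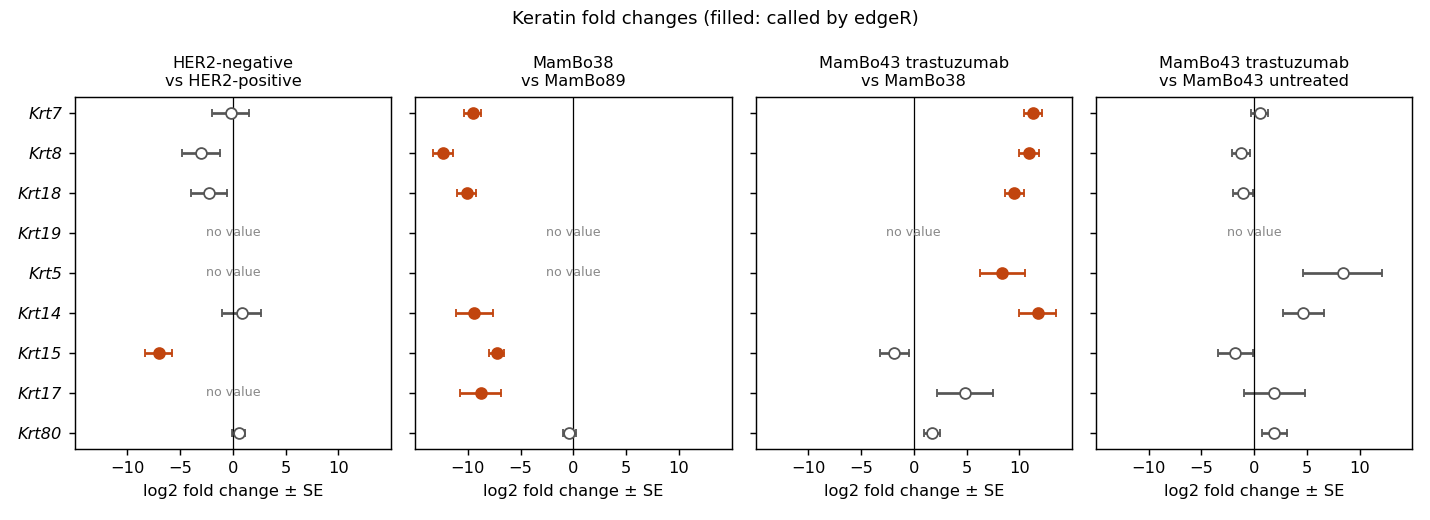
Log2 fold change (horizontal, points) with its SE (bars) of each keratin in 4 comparisons by edgeR. Filled orange points passed both thresholds for a call, open points did not, and "no value" stands for too few counts. Estimates of genes at 0 counts in a group (Krt17 and Krt5 in MamBo38, Krt14 in untreated MamBo38, Krt5 in untreated MamBo43) depend on edgeR's prior count. Between HER2 classes Krt15 was called. Between MamBo38 and MamBo89 6 keratins were called lower, with Krt17 among them through the filter on low counts. Between MamBo43 TRT and MamBo38 5 were called higher, with Krt5 among them through the same filter.

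Between MamBo38 and MamBo89, most keratins differed. MamBo38 (n = 4) was compared with MamBo89 (n = 4) in a fit of all 6 groups, which let 8 members pass, all but Krt19. In MamBo38, 6 of them were called lower, namely Krt7, Krt8, Krt18, Krt14, Krt15 and Krt17, and 0 higher, whereas 41.8% of all 13782 genes tested were called, 20.1% higher and 21.7% lower. The median log2 fold change was -9.09 over the members tested (-8.34 with Krt17 at its lower bound) and -0.07 over all genes. Krt8 averaged 0.140 ± 0.098 CPM in MamBo38 and 746 ± 233 CPM in MamBo89 (± SD, n = 4 each), a log2 fold change of -12.37 (SE 0.94, edgeR adjusted p = 9.12e-06). By counts, Krt8 was 5552 times as high in MamBo89 (95% exact interval 3103 to 11124, from 11 counts in MamBo38). Krt18 had 0.691 ± 0.338 against 766 ± 227 CPM (SD, n = 4 each, log2 fold change -10.12, SE 0.87, edgeR adjusted p = 1.85e-05). Krt7 had 0.146 ± 0.096 against 115 ± 42.4 CPM (SD, n = 4 each, log2 fold change -9.52, SE 0.80, edgeR adjusted p = 1.56e-05).

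The basal members were lower in MamBo38 as well. Krt15 had 0.530 ± 0.803 against 63.2 ± 25.5 CPM (SD, n = 4 each, log2 fold change -7.28, SE 0.71, edgeR adjusted p = 3.59e-05). Of its 40 counts in MamBo38, 31 came from untreated library 2. With single libraries left out, its log2 fold change was between -9.28 and -6.78. Krt14 had 2 counts in all of MamBo38 against 13.6 ± 14.4 CPM (SD, n = 4) in MamBo89, where it was 580 times as high by counts (95% exact interval 160 to 4792, log2 fold change -9.40, edgeR adjusted p = 0.00215). Of its 1096 counts in MamBo89, 710 came from the AG3 library. Its log2 fold change depends on edgeR's prior count and was between -10.92 and -8.50 with single libraries left out. Krt17 had 0 counts in MamBo38, and MamBo89 was at least 107-fold higher, against 3 counts over the group. It passed the filter on low counts only through MamBo89, where it is high, so its call was bound to come and is no support, which leaves 5 of 7 members. The fold rests on the AG3 library, without which the fitted log2 fold change, which depends on edgeR's prior count, went from -8.78 to -6.94. Krt80 was not called (log2 fold change -0.37, SE 0.64, edgeR adjusted p = 0.633). In 6 of the 8 members tested the lines did not overlap in any library, as in 59.3% of all genes tested. Tumor of origin and line cannot be told apart here, and 3 of the 4 MamBo38 libraries have a name code that no other library has.

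In MamBo43 TRT, keratin RNA was far above the MamBo38 level, in a comparison that shares the MamBo38 libraries with the previous one. The part that HER2-positive cells remaining under trastuzumab had in these values was not tested. MamBo43 TRT (n = 2) had 5 of 8 members tested called higher than MamBo38 (n = 4) and 0 lower, while of all genes tested 20.2% were called, 10.3% higher and 9.88% lower. The median log2 fold change was 8.96 over the members tested (7.72 with Krt5 and Krt17 at their lower bounds) and 0.02 over all genes. Krt7 (log2 fold change 11.27, SE 0.84, edgeR adjusted p = 0.000126), Krt8 (10.90, SE 0.94, edgeR adjusted p = 0.000211) and Krt18 (9.54, SE 0.88, edgeR adjusted p = 0.000278) were higher, as was Krt14 (11.76, SE 1.76, edgeR adjusted p = 0.00339). These 4 were also called with either MamBo43 TRT library left out, at log2 fold changes of at least 9.36, 8.85, 7.33 and 9.13. Krt14 had 2 counts in all of MamBo38 and 0 in its untreated libraries, so its estimate depends on edgeR's prior count. By counts, Krt14 was 2740 times as high in MamBo43 TRT (95% exact interval 758 to 22634). Krt5 was at least 59.4-fold higher, against 3 counts over the MamBo38 group, and 100 of its 101 counts came from the 60-day library. It passed the filter only through that library, so its call is no support, which leaves 4 of 7 members. Krt15 (-1.83, SE 1.35, edgeR adjusted p = 0.346) and Krt80 (1.76, SE 0.74, edgeR adjusted p = 0.111) were not called. DESeq2 called 7 members, Krt80 among them (adjusted p = 0.0685). Krt80 was called under 4 of 10 alternatives (adjusted p between 0.0456 and 0.937) and Krt15 under 1 of 9 (adjusted p between 0.0655 and 0.934).

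MamBo43 TRT (n = 2) was also compared with untreated MamBo43 (n = 1), a lone library that was assumed to vary like the other groups. edgeR called 0 of the 8 members tested, with 1 at an unadjusted p under 0.05, and DESeq2 called 1, Krt14 (adjusted p = 0.0731), whereas 28.5% of all genes were called. Krt14 was estimated at 4.66 on the log2 scale (SE 1.91, edgeR adjusted p = 0.106), Krt8 of -1.26 (SE 0.87, edgeR adjusted p = 0.306), Krt18 of -1.08 (SE 0.94, edgeR adjusted p = 0.416) and Krt7 of 0.51 (SE 0.83, edgeR adjusted p = 0.676). Values of the withdrawal and the 60-day library lay far apart. Without the withdrawal library, so that the 60-day library stood alone against the untreated one, edgeR called 5 members. Krt8 (-3.35, adjusted p = 0.00882), Krt18 (-3.33, adjusted p = 0.013) and Krt7 (-1.44, adjusted p = 0.0328) were lower, and Krt14 (5.51, adjusted p = 0.0519) was higher. The call of Krt5, also higher, is no support, since it passed the filter only through the 60-day library itself. Without the 60-day library, 1 was called, Krt7 (1.31, edgeR adjusted p = 0.0642), which was higher. Krt7 thus had opposite directions under both schedules, with 1 library each and no check by replicates.

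**Figure D4:**
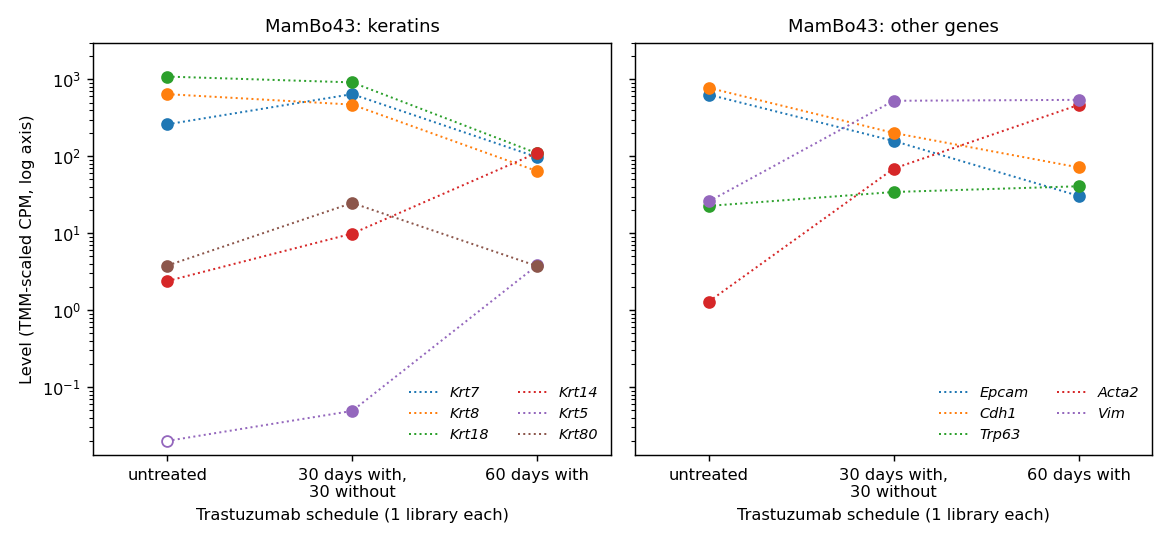
Levels (TMM-scaled CPM, logarithmic axis) of keratins (left) and of epithelial, basal and mesenchymal genes (right) in the 3 MamBo43 libraries, 1 per schedule. Dotted lines join the values of 1 gene and are no time course, and the open symbol stands for 0 counts. Krt8 and Krt18 are lowest and Krt14, Krt5 and Acta2 highest after 60 days with trastuzumab.

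Other genes moved between the same 3 libraries. Epcam, an epithelial surface protein, had 634 CPM untreated, 159 CPM after withdrawal and 30.6 CPM after 60 days, and Cdh1, E-cadherin, 776, 201 and 71.8 CPM. Acta2, the smooth muscle actin of myoepithelial cells and fibroblasts, had 1.29, 69.2 and 466 CPM, and Trp63, the p63 factor of basal cells, 22.7, 34.4 and 40.8 CPM. Cdh3, the P-cadherin of basal cells, which was chosen after its values were seen, had 0.0784, 0.981 and 11.3 CPM. Oxtr, the oxytocin receptor, of the same myoepithelial list went the other way, with 0.824, 0 and 0.0764 CPM (called lower, log2 fold change -4.11, edgeR adjusted p = 0.0295). Vim had 25.9, 527 and 542 CPM. After withdrawal, Krt8 was at 0.732 and Krt18 at 0.841 of the untreated level, where Epcam was at 0.250 and Cdh1 at 0.259, with 1 library each. The epithelial genes did not all fall so far, as Esrp1, a splicing factor chosen after its values were seen, had 395 CPM untreated, 351 CPM after withdrawal and 82.0 CPM after 60 days. Whether the same cells carry these RNAs was not tested.

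Untreated MamBo43 (n = 1) was set against untreated MamBo89 (n = 2) for the comparison of labile with stable lines. Of 8 members tested, 1 was called, Krt15 lower in MamBo43 (log2 fold change -7.49, SE 1.35, edgeR adjusted p = 0.0097), against 15.5% of all genes. Krt8 (-0.12, SE 0.91, edgeR adjusted p = 0.957), Krt18 (0.54, SE 0.95, edgeR adjusted p = 0.757) and Krt7 (0.84, SE 0.79, edgeR adjusted p = 0.528) were not called. Krt17 was not called either (-7.17, SE 2.72, edgeR adjusted p = 0.143). It was called under 4 of 6 alternatives, with adjusted p between 0.0196 (without the NT library) and 0.279 (without the AG3 library, where its estimate was -3.46). Krt14 had -3.10 (SE 1.76, edgeR adjusted p = 0.295), and -1.37 without that library.

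Trastuzumab left the members without a call in the lines that did not change HER2 status. In MamBo38 (n = 2 against 2), edgeR called 0 of the 8 members and 0% of all genes, with 0 members and 230 genes at an unadjusted p under 0.05, and DESeq2 called 0 members and 1 gene. Both treated MamBo38 libraries share the name code of untreated library 1 and not that of untreated library 2, and the fit did not account for this. In MamBo89 (n = 2 against 2), edgeR called 0 members and 0% of all genes, with 0 members and 724 genes at an unadjusted p under 0.05, and DESeq2 called 0 members and 33 genes. In MamBo89, Krt8 was estimated at 0.18 on the log2 scale (SE 0.74, edgeR adjusted p = 0.954) and Krt14 of -1.59 (SE 1.24, edgeR adjusted p = 0.721). There the AG3 library widened the spread of Krt14 and Krt17, and without it both signs turned, to 0.085 and 1.04. Without the NT library, 1 member was called, Krt17 at -3.57. The trastuzumab response of MamBo43 minus that of MamBo89, a comparison added after the data were seen, had 0 of 8 members called by edgeR, with 1 at an unadjusted p under 0.05, and 1 by DESeq2, against 22.2% of all genes. Krt14 was at 6.25 in it (SE 2.27, edgeR adjusted p = 0.101).

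Genes of proteins that anchor keratin filaments moved in both directions, more of them lower in the HER2-negative class. Of 15 genes in this list, 14 were tested between HER2 classes, 9 were called lower and 1 higher, with a median log2 fold change of -1.87. For this and the following lists, 17% of all genes were called lower and 15.8% higher between HER2 classes, and the median of all genes was -0.04. Dsp, the desmosomal plakin that binds keratins, had 0.150 to 0.337 CPM in MamBo38, 215, 141 and 65.8 CPM in MamBo43 untreated, after withdrawal and after 60 days, and 256 to 284 CPM in MamBo89. Pkp1, another desmosome protein, had the lowest estimate of the list (log2 fold change -5.15, edgeR adjusted p = 0.0053). Plec, a plakin that also binds vimentin, was the 1 gene called higher (1.61, edgeR adjusted p = 0.000165), with 588 to 731 CPM in MamBo38 and 153 to 198 CPM in MamBo89. In MamBo43 TRT against MamBo38, 8 of 15 were called higher and 1 lower (10.3% and 9.88% of all genes), and in MamBo43 TRT against untreated MamBo43, 2 were called higher and 8 lower (28.5% of all genes in either direction).

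Transcription factors of epithelial cells followed a similar division. Of 15 tested between HER2 classes, 10 were called lower and 1 higher, with a median log2 fold change of -3.99. Elf5, a factor of luminal progenitors, fell most (-8.80, edgeR adjusted p = 1.61e-05) and Klf4 was called higher (1.01, edgeR adjusted p = 0.0761). Elf5 had at most 15 counts in any HER2-negative library and passed the filter on low counts through the HER2-positive class, so its call is no support. Trp63 was not called (0.32, edgeR adjusted p = 0.853), with 0.0558 to 1.01 CPM in MamBo38, 22.7 to 40.8 CPM in MamBo43 and 0.969 to 13.0 CPM in MamBo89, and neither was Gata3 (0.23, edgeR adjusted p = 0.459). MamBo43 had more Trp63 than any MamBo89 library in all 3 libraries, while its Krt15 was lower in all 3. Between MamBo38 and MamBo89, 13 of 17 factors were called lower and 1 higher (21.7% and 20.1% of all genes). Among the 13, Sox10 and Grhl3 had 0 counts in MamBo38 and passed the filter only through MamBo89, so their calls are no support.

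Of the other intermediate filaments, 8 of 16 could be tested between HER2 classes, 2 were called higher and 2 lower, and the median log2 fold change was 0.41. Vim rose (5.27, SE 0.65, edgeR adjusted p = 6.92e-05), from 25.9 to 89.6 CPM in HER2-positive libraries to 527 and 542 CPM in MamBo43 TRT and 2008 to 3508 CPM in MamBo38. Des, desmin, also rose but stayed at or under 2.22 CPM. It had at most 4 counts in any HER2-positive library and passed the filter on low counts only through the HER2-negative class, so its call is no support. Synm, synemin, fell (-5.35, edgeR adjusted p = 4.49e-05), with 156 to 354 CPM in MamBo89 and 20.5 CPM or less in the other lines. MamBo43 TRT therefore held both Krt8 and Vim RNA in each library, at 470 and 527 CPM after withdrawal and at 64.2 and 542 CPM after 60 days.

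Myoepithelial genes were examined as markers of the basal layer. In this list 4 of 7 genes were tested between HER2 classes, 2 were called higher and 1 lower. Acta2 rose by 8.37 on the log2 scale (edgeR adjusted p = 0.0028), was at 0 counts in all MamBo89 libraries, 7.35 to 26.6 CPM in MamBo38 and highest in the 60-day library of MamBo43. Oxtr fell by 4.71 on the log2 scale (edgeR adjusted p = 7.88e-05). It was at or under 0.0764 CPM in the HER2-negative libraries and passed the filter on low counts only through the HER2-positive class, so its call is no support. Myh11, smooth muscle myosin, was at or under 0.535 CPM in all libraries. Of the epithelial genes named above, 4 of 6 were called lower and 0 higher between HER2 classes, Cldn4 with the lowest estimate (-4.70, edgeR adjusted p = 0.00664). Of the leukocyte, endothelial and adipocyte genes, Cd68 (1.67, edgeR adjusted p = 0.0885) and Fabp4 (2.54, edgeR adjusted p = 0.000535, at or under 2.64 CPM) were called higher and the others had too few counts for this test. Fabp4 had at most 10 counts in any HER2-positive library and passed the filter through the HER2-negative class, so its call is no support.

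The other 44 keratin genes added little. Of these, 15 were at 0 in all libraries and 43 were below 5 CPM everywhere. Krt79, a type II keratin, was the exception, with 6.72 CPM in the NT library of MamBo89, 1.65 to 2.97 CPM in the other MamBo89 libraries, 0.941 CPM in untreated MamBo43 and at most 1 count in any HER2-negative library. It passed the filter and the level of 5 CPM only through the HER2-positive class, so no test is given for it. Between MamBo38 and MamBo89, 10 of the other keratins were tested, 8 were called lower and 1 was called higher, Krt13, which is named after its value was seen. Genes this low can pass the filter only through the group where they are high, so these counts are no support.

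Finally, the 12355 other tested genes were ranked by how alike their levels were to those of Krt8 and of Krt14 over the 11 libraries (Pearson's r of log2 of CPM + 1). The points share their lines, so that r is a description. For Krt8 the top 5 were Wnt7b, Myo5b, Spint2, Map7 and Lamb3, with r between 0.996 and 0.997. All 5 were at or under 1.45 CPM in MamBo38 and at 9.71 CPM or more in the other 7 libraries. For Krt14 the top 5 were Fbxo39, Slitrk5, Cry1, Zfp638 and Gm4951, with r between 0.911 and 0.947, of which Fbxo39, Slitrk5 and Gm4951 never passed 2.33 CPM.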

How the data were processed

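RNA was read on a NextSeq 500 as single reads of 75 bases from 11 unstranded TruSeq libraries. The authors aligned the reads with STAR 2.5 and estimated expected counts per mouse gene with RSEM 1.3.0, after bcl2fastq and against mm10 per the submitters' notes, and deposited them as 1 table with whole values. HER2 is a human transgene and is not counted in it. Library sizes were scaled with TMM in edgeR 4.0.16 (R 4.3.3), genes were filtered by edgeR's rule (minimum count 10, total 15), and contrasts were tested with its quasi-likelihood test and Benjamini-Hochberg adjustment (prior count 0.125). Genes were called when the adjusted p was below 0.1 and the log2 change at least 1 in size, which are also the study's thresholds. HER2 classes were compared in a fit of their own (12364 genes), and all other contrasts in a fit of 6 groups (13782 genes). The test was also run on simulated counts. DESeq2 1.42.0, other scaling and filters, subsets of libraries and leaving out each library were alternatives. The smallest chi-square per degree of freedom within the 15 pairs of libraries of 1 line was 7.89, so no library was a copy of another. Coordinates and transcript lengths came from GENCODE's annotation of GRCm38. The text names the 9 members, other keratins that reach 5 CPM, the first measured pair of each list and its extremes in each direction between HER2 classes, and the 5 genes most like Krt8 and Krt14. The members and lists were chosen with earlier results of these data known. A gene of the marker lists is not reported here.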

Additional observations from a re-analysis of the deposited data

Results flagged for a closer look

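Single libraries stood far from the rest of their group for 8 keratins, by Dixon's test at 95%, in 10 of 26 groups of libraries tested. The rate by chance, about 1 in 20, holds for independent groups with a normal spread. These groups share libraries, so that rate is no measure for them. In the HER2-negative class the withdrawal library of MamBo43 was the outlying one for Krt7 (643 CPM), Krt8 (470 CPM), Krt18 (914 CPM) and Krt80 (24.8 CPM), and the 60-day library of MamBo43 for Krt14 (111 CPM) and Krt5 (3.82 CPM). This class joins 2 lines with different keratin levels. Krt15 was outlying in MamBo38 untreated library 2, at 1.73 CPM, both within MamBo38 and within the HER2-negative class. Krt17 was outlying in the AG3 library, at 12.4 CPM, both within MamBo89 and within the HER2-positive class.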

How the results depend on the processing

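Between HER2 classes, the 1 member called became 2 with DESeq2, 3 with no filter, 4 with untreated libraries, and 0 with tumor B libraries only or with tumor as a covariate, and was 0 to 3 when single libraries were left out. Without MamBo38 untreated library 2 it was 0, since Krt15 then failed the filter, and without the MamBo43 withdrawal library it was 3. The members called with untreated libraries passed the filter only through the HER2-positive ones. The sign turned for Krt7 with the libraries that share the code of MamBo43 and MamBo89 (0.79), and with untreated libraries for Krt80 (-0.27) and Krt14 (-11.24). For MamBo43 TRT against untreated MamBo43, members called went from 0 to 1 with DESeq2, 2 with no filter and 1 to 5 with single libraries left out, and genes called to 2607 to 3738. For untreated MamBo43 against MamBo89, members called were 2 with DESeq2, 2 with no filter, 3 with only the libraries of that comparison and 1 to 2 with single libraries left out, and genes called were 952 with only those libraries. Under trastuzumab, DESeq2 called 1 gene in MamBo38 and 33 in MamBo89, where leaving out single libraries gave 0 to 2148 genes and 0 to 1 members, the higher values without the NT library. For the difference of the trastuzumab responses, chosen after the data were seen, members called were 1 with DESeq2, 1 with no filter and 0 to 3 with single libraries left out, and genes called 1606 to 4428. Without TMM scaling, the summed luminal level of untreated MamBo43 was 1937 CPM. The cause of these changes was not tested.

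With single libraries left out, signs turned for members that were not called. Log2 fold changes ranged between HER2 classes from -2.86 to 0.11 for Krt7, -0.31 to 0.79 for Krt80 and -2.51 to 1.87 for Krt14. For MamBo38 against MamBo89, Krt80 ranged from -1.13 to 0.049. For MamBo43 TRT, the ranges were -1.44 to 1.31 (Krt7) and -0.045 to 2.70 (Krt80) against untreated MamBo43, and -0.16 to 2.56 (Krt80) and -2.34 to 0.17 (Krt15) against MamBo38. For untreated MamBo43 against MamBo89 they were -0.82 to 0.51 (Krt80) and -0.52 to 0.55 (Krt8). Under trastuzumab in MamBo38 they were -1.52 to 0.24 (Krt7), -0.52 to 1.59 (Krt18), -0.32 to 1.90 (Krt80), -1.23 to 1.17 (Krt8) and -3.20 to 1.80 (Krt15). In MamBo89 they were -0.34 to 0.66 (Krt18), -3.57 to 1.04 (Krt17), -0.17 to 1.20 (Krt80), -3.41 to 0.085 (Krt14), -0.27 to 0.85 (Krt8) and -0.85 to 0.22 (Krt15). For the difference of the responses they were -0.67 to 2.10 (Krt7), -0.27 to 5.49 (Krt17) and -0.41 to 2.35 (Krt80). No paired analysis was run. The library names carry no replicate numbers that groups share, only name codes and schedules. With 1 library per schedule in MamBo43, neither schedule has a spread of its own.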
